A study of Mus musculus with 13 samples.

Results

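Nonclassical, or patrolling, monocytes were taken from single-cell RNA sequencing of mouse liver, chosen by a gate on the measured UMIs of 10 genes. A member was a cell barcode with at least 1500 unique molecular identifiers (UMIs, one per captured transcript), at least 2 UMIs of Treml4, Ace and Cd300e together, at least 5 of Lyz2, at most 1 of Ly6c2, at most 2 of C1qa, C1qb and C1qc together, and none of Flt3 or Cd3e. The gate kept 507 of 95563 cells (0.531%). The libraries came from livers of male C57BL/6J mice aged 6 to 12 weeks on chow with 0.1% DDC (3,5-diethoxycarbonyl-1,4-dihydrocollidine), which provokes cholangitis, after 0 (D0, steady state), 3, 5 (D3 and D5, onset), 9, 19 or 25 days (D9, D19 and D25, progression), each isolated with protocols A and B, where the study counts day 18 as D19. A further library, STOP, came from mice kept on the diet for 18 days (18 or 19 by another label) and then off it for 7 days, isolated with protocol B. Protocol A sorted equal parts of live singlets, Epcam+ cells, Pdpn+ cells, Cd45+ cells, Lyve-1+ cells, Cd31+ Lyve-1- cells and autofluorescent cells that store retinoids. Protocol B sorted live cells of a stellate cell preparation, Cd45+ Itgax+ Cd64- cells, Epcam+ cells and Cd3e+ Lyve-1- cells in equal parts, and the 2 protocols used single-index and dual-index kits, so protocol, sort and kit cannot be told apart. The labels do not say which mice went into which library, so all p-values measure the spread between libraries.

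Nonclassical monocytes are Ly6C-low blood monocytes that crawl along the inside of small vessels, clear debris and damaged endothelium, and carry Fc receptors. They mostly arise from Ly6C-high classical monocytes, a step that needs the nuclear receptor Nr4a1 and the transcription factor Cebpb, and they live on signals through the receptor Csf1r. Classical monocytes enter inflamed tissue through the chemokine receptor Ccr2 and can become macrophages, which in the liver carry complement C1q.

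The 13 libraries held 29307190 to 108602421 UMIs and 1541 to 14764 cells each, with a median of 3350 to 12013 UMIs per cell. Members numbered 20 in D0 A, 33 in D3 A, 32 in D5 A, 120 in D9 A, 45 in D19 A and 88 in D25 A. With protocol B they numbered 95 in D0 B, 11 in D3 B, 20 in D5 B, 8 in D9 B, 3 in D19 B and 8 in D25 B, and STOP held 24. Genes were therefore compared over UMI sums of the 9 libraries with at least 20 members, which held 477 of them. The median member had 3788 UMIs in D0 A and 14202 in D3 B, the extremes of the 13 libraries. The 78 pairs of libraries shared at most 49 cell barcodes, and no member barcode occurred in more than 1 library.

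The gate's own genes describe the choice and support nothing. Treml4, a receptor of the TREM family, stood between 132 and 388 CPM (counts per 1000000, the UMIs of a gene relative to all UMIs summed over the members of a library). Ace, which encodes angiotensin-converting enzyme, stood at 915 CPM in D0 A and between 149 and 474 CPM in the other 8 libraries. Cd300e, an activating receptor, ranged from 7.44 CPM in D19 A to 200 CPM in D0 A. Just inside the threshold, cells with exactly 2 UMIs of the 3 genes held Csf1r in 16.7% (STOP) to 100% (D3 A, D3 B and D25 A) of cases, and just outside it, cells with 1 UMI did so in 22.1% (D0 B) to 100% (D3 B). At 3 or more UMIs the share ran from 60.4% in D0 B to 100%. At exactly 2 UMIs, fewer than 50% of cells held Csf1r in STOP (1 of 6), D0 B (31%), D5 B and D25 B (both 33.3%).

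Genes that the gate did not use were checked against the name. Of the 507 members, 398 held a UMI of Csf1r, 422 of Nr4a1, 454 of Cebpb, 442 of Gngt2 (a G protein subunit), 369 of Itgal (the LFA-1 integrin chain used in crawling), 303 of Adgre4 (the adhesion receptor EMR4) and 215 of Spn (CD43). Other genes known from nonclassical monocytes were found less often, some of them rarely. In D9 A, the library with most members (120), Cx3cr1 was found in 68, Fcgr4 in 58, Ceacam1 in 9, Ear2 in 4 and Apoc2 in 1. With each cell thinned to 1500 UMIs, Csf1r was found in 29.2% (STOP) to 65% (D0 A) of members over the 9 libraries and in 0% to 12.5% of T cells of the same library, which should lack it. These T cells were gated on Cd3e and the absence of Lyz2, while members needed Lyz2 and no Cd3e. The contrast can therefore tell myeloid cells from T cells, but not nonclassical monocytes from other myeloid cells. Adgre4 was found in 15% (D5 B) to 55% (D0 A) of thinned members and at most 0.159% of thinned T cells. Spn, Nr4a1, Itgal and Cebpb did not separate the members from T cells by detection in every library. Thinned Spn reached 12.1% of members and 17.4% of T cells in D3 A, Itgal 25% of both in D5 A, Cebpb 54.7% and 49.2% in D0 B, and Nr4a1 50.8% and 42.9% in D9 A.

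Many members also carried transcripts of other cell types. At least 1 UMI of the 4 cDC1 genes Xcr1, Clec9a, Gcsam and Cadm1 was present in 131 members (25.8%), and Csf1r in 54.2% of these. The share was 47 of 95 in D0 B, 13 of 24 in STOP and 9 of 20 in D5 B, against 0 of 20 in D0 A. In STOP, 1 of the 13 cDC1-positive members held Csf1r, and in D0 B 10 of 47 did. At least 3 UMIs of 6 endothelial genes were present in 135 members (26.6%), and Csf1r in 82.2% of these. At least 3 neutrophil UMIs were present in 74 members (14.6%). The 8 neutrophil genes summed to 299 CPM (D5 B) to 8513 CPM (D19 A) in the members of the 9 libraries. They stood at 6790 CPM in STOP and 4019 CPM in D0 B. Of these 8 genes, Ly6g and Camp were at 0 in all 9 libraries. The members with no cDC1 UMI and fewer than 3 UMIs of each of 14 lists of other cell types, called restricted members below, numbered 199 (39.3%). This filter was on raw UMIs, so it depends on depth. The median restricted member had 2690 UMIs in D0 B (all members 5569), 10612 in D3 A (13290) and 3803 in D0 A (3788). Csf1r was present in 93% of the restricted members, Nr4a1 in 86.9% and Adgre4 in 75.9%. They held 995163 of the 3714549 UMIs of the members in the 10 libraries with at least 5 of them (26.8%). Results are given for all members, with many list counts and gene values also given for the restricted members, a split made after the data were seen. In D0 B, 45 of 95 members held Csf1r and 47 a cDC1 UMI, and in STOP 12 and 13 of 24 did. In D19 A, 28 of 45 members held Csf1r, 17 Adgre4 and 12 Cx3cr1, while 18 held at least 3 endothelial UMIs and 15 at least 3 neutrophil UMIs. Of those 18, 16 held the gate gene Ace, 7 held Csf1r and 1 held Cx3cr1. In these libraries the markers went against the name for many members, and the name stands for the gate.

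**Figure D1:**
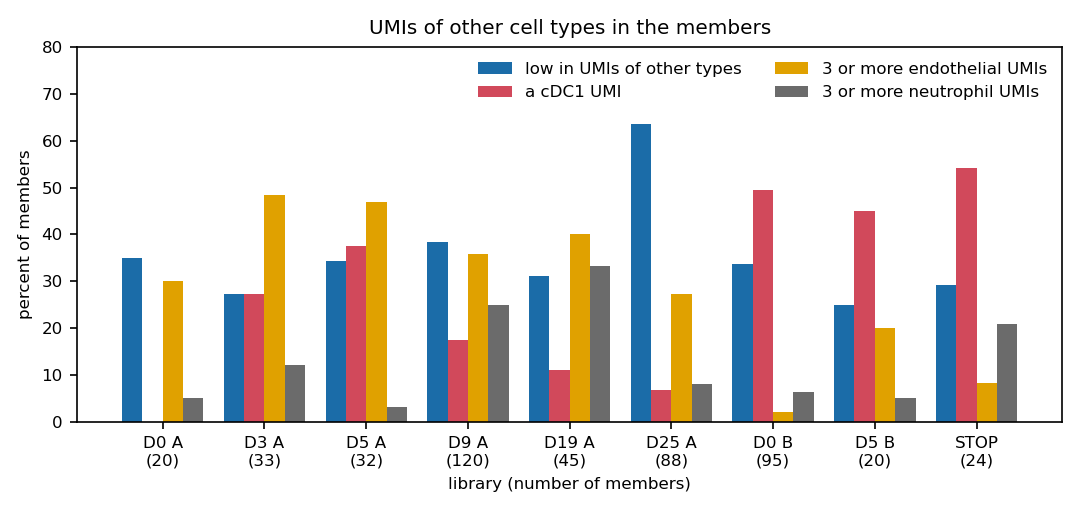
Percent of members (y axis) in each library (x axis, number of members in brackets) that were low in UMIs of other types (blue), held a cDC1 UMI (red), held at least 3 endothelial UMIs (yellow) or held at least 3 neutrophil UMIs (grey). A member can count in more than 1 of the last 3 classes. Cells with cDC1 UMIs were most frequent in STOP (13 of 24) and D0 B (47 of 95).

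How the frequency of nonclassical monocytes moved with the diet was asked within each protocol, because the sort sets the share of any cell type. With protocol A the members made up 0.307% of cells at D0 (95% exact binomial interval 0.187 to 0.473), 0.466% at D3, 0.472% at D5, 0.813% at D9 (0.674 to 0.971), 0.571% at D19 and 0.826% at D25 (0.663 to 1.02). All 5 diet libraries of protocol A lay above their D0 library. With protocol B they made up 1.36% of cells at D0 (1.1 to 1.66), 0.714% at D3, 0.266% at D5, 0.184% at D9, 0.0426% at D19 (0.00879 to 0.125) and 0.134% at D25. All 5 diet libraries of protocol B lay below theirs. Such intervals cover counting error only.

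Pooled over protocols, the share was 0.449% ± 0.284 (SD, n = 10) on the diet and 0.832% ± 0.743 (SD, n = 2) at steady state. The difference of -0.383 percentage points gave a two-sided exact permutation p of 0.194 over the 36 rearrangements within protocol, of which the smallest possible p is 0.0278. Without D0 B the difference was 0.142 points. With each cell thinned to 1500 UMIs, D0 A stood at 0.153% and the diet libraries of protocol A at 0.0565% to 0.338%, 2 above and 3 below, while all 5 of protocol B stayed below D0 B (0.429%). For the restricted members the protocol A values were 0.107% at D0 and 0.127% to 0.526% on the diet, and the protocol B values 0.457% and 0.0142% to 0.324%. The opposite directions of the 2 protocols held in that subset too.

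**Figure D2:**
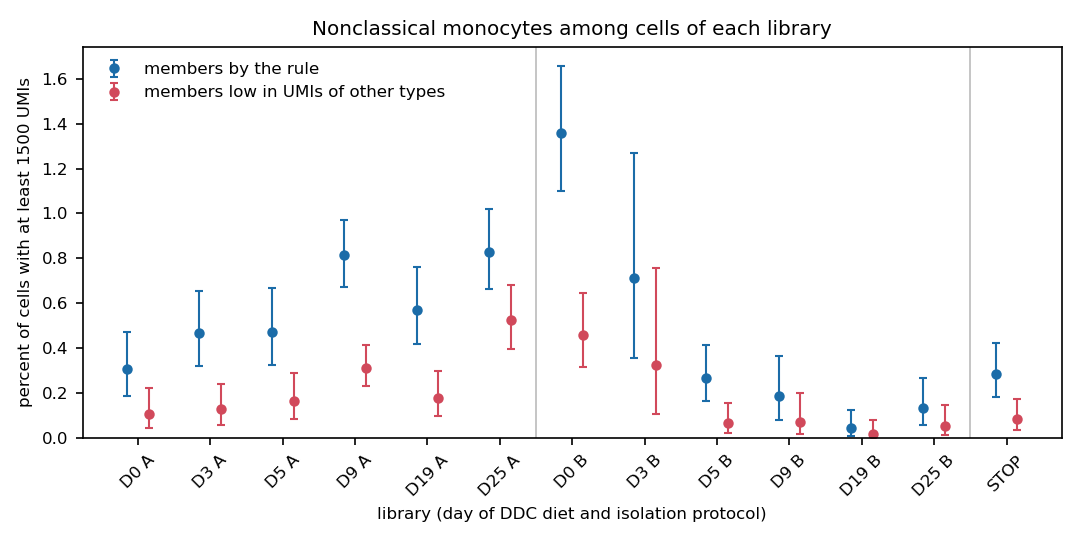
Members (blue) and members low in UMIs of other types (red) as a percent of cells with at least 1500 UMIs (y axis) in each library (x axis, day of diet and protocol). Bars are 95% exact binomial intervals, which cover counting error only. Blue points run from 0.307% to 0.826% in protocol A and from 1.36% down to 0.0426% in protocol B.

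As a share of monocytes, the members were compared with classical monocytes gated by at least 5 UMIs of Ly6c2, at least 5 of Lyz2 and at most 1 UMI of the 3 marker genes. That gate held 161 cells in the 13 libraries. A member needed 2 UMIs of the 3 marker genes, a classical monocyte 5 of Ly6c2. Cells with more than 1 but fewer than 5 UMIs of Ly6c2 fell in neither gate. The shares therefore depend on the gates and on depth and do not give the make-up of liver monocytes. With each cell thinned, D9 A held 39 members and 3 classical monocytes instead of 120 and 38. D0 B held 30 and 2 instead of 95 and 15, and D5 A 8 and 4 instead of 32 and 18. In D0 B, 47 of the 95 members held a cDC1 UMI. D0 A had 55.6% members among its monocytes, D0 B had 86.4%, and the values were 64% (D5 A) to 84.6% (D3 A) in the diet libraries with at least 20 monocytes. The mean was 76.9% ± 6.99 (SD, n = 6) on the diet and 71% ± 21.8 (SD, n = 2) at steady state, a difference of 5.89 points (two-sided exact permutation p = 0.667, 12 rearrangements, smallest possible p 0.0833). Progression, at 78.5% ± 2.3 (SD, n = 3), and onset, at 75.2% ± 10.4 (SD, n = 3), differed by 3.35 points (exact permutation p = 0.8, 10 rearrangements, smallest possible p 0.1). Neither design could pass 0.05. The first difference turned to -9.51 points without D0 A and the second to -2.24 points without D5 A.

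Nonclassical were set against classical monocytes of the same library in D9 A (120 and 38 cells) and D25 A (88 and 23 cells), the only libraries with 20 of both. Most genes known to mark patrolling cells were higher in the members, among them Adgre4, Spn and Itgal, and nearly all genes known to mark classical cells were lower, among them Fn1, Vcan and Ccr2. Of 5219 genes tested by edgeR's quasi-likelihood test with Benjamini-Hochberg adjustment, 357 (6.84%) passed 0.05, 221 higher (4.23%) and 136 lower (2.61%) in the members. The fit had 1 residual degree of freedom, so its spread was largely borrowed across genes, and DESeq2 called 47 genes. With cDC1-positive cells left out 176 genes were called. Only the genes outside both gates are tested findings here.

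Of 26 listed nonclassical identity genes, 23 could be tested. Of these, 14 were higher in the members and 0 lower, with a median log2 fold change of 1.09 beside 0.02 for all genes. Adgre4 stood at 229 and 375 CPM in the members of D9 A and D25 A and at 24.7 and 7.0 CPM in classical monocytes, 14.7-fold higher in the fit (log2 3.88 ± 0.40 SE, adjusted p = 4.84e-15). Spn stood at 139 and 200 CPM against 17.6 and 35 CPM (log2 2.73 ± 0.43, adjusted p = 1.35e-07). Both genes were higher in the members of both libraries, with no overlap between the cell types. Itgal (3.0-fold), the fatty acid receptor Cd36 (4.36-fold), Gngt2 (2.71-fold), the muscle-type enolase Eno3 (10.8-fold), the activating IgG receptor Fcgr4 (3.28-fold), the lymphoid and myeloid factor Pou2f2 (2.47-fold), the phosphatase Dusp16 (3.38-fold) and the Wnt effector Tcf7l2 (2.83-fold) were also higher. Itgax, Klf2, Fabp4 and Lair1 complete the 14. Nr4a1 stood at 528 and 579 CPM against 374 and 392 CPM and did not pass (log2 0.52 ± 0.20, adjusted p = 0.102), and neither did Csf1r (log2 0.54 ± 0.20, adjusted p = 0.101).

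The restricted members, set against classical monocytes restricted in the same way in libraries with at least 10 of each, gave 13 identity genes higher and 0 lower of 22 (median 1.57). Over all 2527 genes tested there, 78 were called higher and 54 lower. Csf1r (log2 1.03, adjusted p = 0.00904) and Pglyrp1, a peptidoglycan-binding protein (log2 2.83, adjusted p = 0.00022), were called there. Fabp4, which capillary endothelium also expresses, was not (log2 0.06, adjusted p = 0.948), and Itgax, Klf2 and Lair1 were not among the 13. Of the 357 genes, 217 could be tested among restricted cells, 211 of those had the same sign and 101 were called again, all in the same direction.

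Of 14 classical identity genes, 13 were lower in the members (median -2.05), and 9 of 14 among restricted cells (median -1.43). Fn1, which encodes fibronectin, stood at 285 and 335 CPM in the members against 1584 and 3072 CPM in classical monocytes (log2 -2.84 ± 0.17, adjusted p = 2.66e-32). Ccr2 stood at 170 and 375 CPM against 843 and 987 CPM (log2 -1.87 ± 0.20, adjusted p = 2.87e-13). The matrix proteoglycan Vcan, the chitinase-like Chil3, the haptoglobin gene Hp, S100a4, Ly6a2 and Ms4a4c were lower as well, and Plac8 was the member of the list that did not pass (log2 -0.37 ± 0.18, adjusted p = 0.278). Chil3 lost its call among restricted cells (log2 -0.52, adjusted p = 0.104).

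Adhesion genes split by receptor. The integrin chains Itgal, Itga4 (log2 1.33 ± 0.24) and Itgb1 (0.78 ± 0.21), Spn, and the sphingosine-1-phosphate receptor S1pr5, which guides exit from bone marrow, were higher in the members. S1pr5 stood at 26.9 and 51.6 CPM against 3.53 and 0 CPM. Ccr2, the chemokine receptor Ccr1 (log2 -1.47 ± 0.30) and the gut-homing integrin chain Itgb7 (log2 -1.09 ± 0.35, adjusted p = 0.0379) were among the 4 lower genes, and 9 of 18 did not pass. Among restricted cells 6 of 14 were higher, without S1pr5, and 3 lower. Itgb7 reversed to 0.16 among restricted cells (adjusted p = 0.893).

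The remaining lists held fewer calls. The interferon-induced genes Irf7 (log2 -1.30), Zbp1 (-1.61) and Ifi27l2a (-0.85) were lower in the members, 3 of 12 genes of the type I interferon list with 0 higher. The heme oxygenase gene Hmox1 was higher (log2 1.09 ± 0.22, adjusted p = 1.26e-04, and 1.48 among restricted cells), 1 of 3 genes called higher among 16 of heme and iron handling. Of the survival list, the interferon gamma receptor chain Ifngr1 (log2 0.65) and Bcl2a1b and Bcl2a1a, near-identical copies of an anti-apoptotic gene that may share reads, were higher among 17. Among restricted cells Ifngr1 and Csf1r were called, while Bcl2a1b (log2 0.85, adjusted p = 0.266) and Bcl2a1a (0.78, adjusted p = 0.566) were not. Cd9 (log2 1.08), Ctsb (0.53), Abcg1 and Apoe were higher and Lgals3 lower (-1.14) among 16 genes of lipid-associated macrophages, of which restricted cells kept the calls of Cd9, Ctsb and Lgals3 but not of Abcg1 or Apoe. Of 9 genes of MHC class II presentation, H2-DMa alone passed, lower in the members (log2 -1.17 ± 0.30), as it did among restricted cells. Restricted cells gave 2 lower of 3 type I interferon genes, without Zbp1, and 1 higher of 10 heme and iron genes, with 0 in the other direction.

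The 10 genes with the largest rise by the naming rule were Mgp, Cxcl1, Sprr1a, Smim22, Vwf, Ttr, Atp1b1, Ambp, Tspan8 and Wfdc2, which are mostly known from epithelium, hepatocytes, stroma or endothelium rather than monocytes. Mgp, a matrix protein of vessel wall and stroma, stood at 181 and 175 CPM in the members and at 5 CPM or less in the restricted members of D9 A and D25 A. In the members of D9 A and D25 A the 6 endothelial genes summed to 2133 and 875 CPM, against 1235 and 546 CPM in the classical monocytes. The 5 cholangiocyte genes summed to 689 and 343 CPM against 17.6 and 182 CPM, and the 6 hepatocyte genes to 597 and 147 CPM against 138 and 42 CPM. The part of such RNA in these rises was not tested. The 10 with the largest fall included the neutrophil granule genes Prtn3 and Mmp8 beside Ly6a2, Fn1, F13a1, Wfdc21 and Vcan, with AA467197 and AI839979. Classical monocytes of D9 A held the neutrophil alarmin S100a8 at 7239 CPM and those of D25 A at 525 CPM. Prtn3 (log2 -3.32, adjusted p = 0.0216) and Mmp8 (log2 -3.79, adjusted p = 1.40e-04) were called lower among restricted cells too, where cells with 3 or more neutrophil UMIs were left out on both sides. The part of neutrophil RNA in these falls was not tested.

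**Figure D3:**
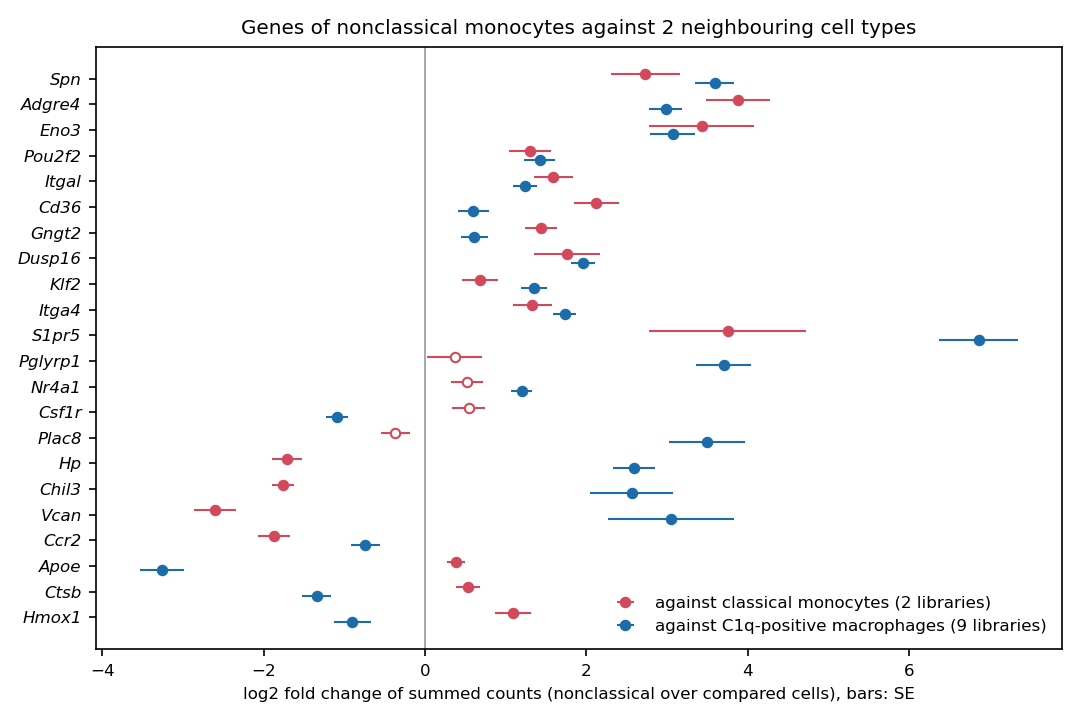
Log2 fold change (x axis) of 22 genes (y axis) in nonclassical monocytes over classical monocytes (red, 2 libraries) and over C1q-positive macrophages (blue, 9 libraries). Bars are the standard error, filled points passed an adjusted p of 0.05 and open points did not. Spn (2.73 and 3.59), Adgre4 (3.88 and 2.98) and Eno3 (3.43 and 3.07) lay far above 0 in both comparisons, while Hp, Chil3 and Vcan lay below 0 against classical monocytes and above 0 against macrophages.

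Nonclassical monocytes were next set against macrophages of the same library that carried at least 10 C1q UMIs and at least 2 of Cx3cr1, the fractalkine receptor that both cell types share. This gate held 2921 cells, 67 to 707 per library in the 9 libraries used. The members held more RNA of 14 of 22 nonclassical identity genes, among them Spn, Adgre4 and Nr4a1, and less of 12 of 16 genes of lipid-associated macrophages, among them Apoe and Trem2. Of 8016 genes tested, 1501 (18.7%) passed, 707 higher (8.82%) and 794 lower (9.91%) in the members, by the same edgeR test with the library as a block. Restricted members were set against macrophages restricted in the same way. Over all 3720 genes tested there, 317 were called higher and 294 lower. Cx3cr1, C1q and the other gate genes are left out of what follows as findings.

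Spn averaged 156 CPM ± 117 (SD, n = 9) in the members and 12.1 ± 6.56 in the macrophages, and the lowest member library (74.4 CPM in D19 A) lay above the highest macrophage library (23.9 CPM in D0 B). The fitted difference was 12-fold (log2 3.59 ± 0.24, adjusted p = 1.32e-07), and Spn was higher in 9 of 9 libraries. Adgre4 averaged 245 CPM ± 203 against 27.4 ± 14.9 (log2 2.98 ± 0.21, adjusted p = 2.16e-07). Nr4a1 averaged 757 CPM ± 400 against 287 ± 106, with D0 A highest in both cell types at 1779 and 554 CPM (log2 1.20 ± 0.13, adjusted p = 3.90e-06). All 3 genes were higher in the members of 9 of 9 libraries, and kept their calls among restricted cells.

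In all, 14 of 22 identity genes were higher and 2 lower, with a median log2 fold change of 0.82 beside -0.03 for all genes. Klf2 (2.55-fold) and Klf4 (1.53-fold), zinc finger factors of quiescent monocytes, Cebpb (1.74-fold), Pou2f2 (2.68-fold), Dusp16 (3.9-fold), Pglyrp1 (13-fold) and the checkpoint ligand Cd274 (1.8-fold) were among the 14. Csf1r was lower (log2 -1.09 ± 0.14, adjusted p = 1.91e-05), at 392 CPM ± 178 in the members and 731 ± 227 in the macrophages, and so was the inhibitory receptor Lair1 (-0.88 ± 0.16). Among restricted cells Csf1r did not pass (log2 -0.31, adjusted p = 0.327), 15 identity genes were higher, and Itgax alone was lower (log2 -1.22, adjusted p = 0.0195). Klf4 (log2 0.57, adjusted p = 0.395) and Cebpb (1.29, adjusted p = 0.0615) were not among the 15, nor was Lair1 called there. The restricted members held Csf1r at 681 CPM ± 176 (SD, n = 10).

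Genes of circulation and crawling were mostly higher, 11 of 17 against 2 lower. Itga4 (3.31-fold), Itgb7 (4.27-fold), Itgal (2.36-fold) and S1pr5 were among them. S1pr5 stood between 14.9 and 75.2 CPM in the 9 member libraries, while 6 of 9 macrophage libraries listed it at 0 and the others at 0.161 to 0.315 CPM. Ccr2 (log2 -0.74 ± 0.18) and Ccr1 (-1.23 ± 0.25) were lower in the members. Among restricted cells 8 of 13 were higher and the same 2 lower. The classical list was split, with 6 of 13 genes higher, among them Hp, Plac8, Cd177, Chil3 and Vcan, and 3 lower, F13a1, Ccr2 and Ccl9, and restricted cells gave 6 higher and 1 lower (Ccr2) of 11, without F13a1 or Ccl9. Plac8 stood between 407 CPM (D3 A) and 2556 CPM (D0 A) in the members and between 37.5 and 569 CPM in the macrophages (log2 3.49 ± 0.47, adjusted p = 9.33e-04).

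Genes of lipid-associated macrophages were lower in the members, 12 of 16 with 0 higher and a median of -1.40. Apoe, the lipid carrier apolipoprotein E, stood between 597 CPM (D0 B) and 9184 CPM (D19 A) in the members and between 12453 and 63590 CPM in the macrophages, with no overlap (log2 -3.26 ± 0.27, adjusted p = 7.29e-06). Restricted members of D19 A held Apoe at 12931 CPM, above the macrophages of D0 B (12453 CPM). Trem2, the lipid-sensing receptor, stood between 3.34 and 223 CPM against 183 to 1237 CPM (log2 -3.25 ± 0.33, adjusted p = 6.78e-05), and overlapped through the members of D19 A. Restricted members held Trem2 at up to 263 CPM (STOP). Ctsd, Lipa, Lpl, Cd63 and Gpnmb, genes of lysosome and lipid breakdown, were lower too. Among restricted cells 11 of 16 were lower, without Lipa, and Spp1, which encodes osteopontin, joined them (log2 -3.24, adjusted p = 3.25e-06).

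Of 17 heme and iron genes 9 were lower and 0 higher (median -0.70). These were the ferritin chains Ftl1 (log2 -0.92) and Fth1 (-0.87), Blvrb (-1.60), which reduces biliverdin, the iron exporter Slc40a1 (-2.08 ± 0.42), Slc48a1, Lrp1, Blvra, Alas1 and Hmox1 (-0.90 ± 0.23, adjusted p = 0.0145). Among restricted cells 4 of 13 were lower, Blvrb, Fth1, Ftl1 and Alas1, and Hfe, a regulator of iron uptake, was higher. Slc40a1 (log2 -0.98, adjusted p = 0.218), Slc48a1, Lrp1 and Blvra were not called there, and Hmox1 reversed (log2 0.13, adjusted p = 0.827). Of the Fc and scavenger receptors, the high-affinity IgG receptor Fcgr1 (-2.27), Fcgr3 (-1.68), the efferocytosis receptors Axl (-2.59) and Mertk (-1.29), Cd68 (-1.08) and 4 more were lower among 16, and Cd36 was higher (log2 0.60 ± 0.19, adjusted p = 0.0409). Restricted cells gave 7 lower of 14, without Cd68 (log2 -0.55, adjusted p = 0.0849), and Cd36 higher. The activating receptor Fcgr4 was not called, at 55.1 to 276 CPM in the members and 84.5 to 292 CPM in the macrophages.

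MHC class II genes depended on which members, macrophages and libraries were used. Over all members 1 of 11 genes was lower, the protease Ctss (log2 -1.53 ± 0.12), and the median was -0.96. H2-Ab1 stood between 181 CPM (D19 A) and 7826 CPM (STOP) in the members and between 806 and 9377 CPM in the macrophages (log2 -1.29 ± 0.57, adjusted p = 0.161). Among restricted cells all 8 measured genes of the list were lower, with a median of -2.38, including H2-Ab1 (log2 -2.45, adjusted p = 4.88e-06), H2-Eb1 (-3.10) and the invariant chain Cd74 (-2.57). Over all genes, that fit called 294 of 3720 lower. It could hold only D0 B, D9 A and D25 A, and its macrophages were restricted in the same way. The changes of members, of macrophages and of libraries therefore cannot be told apart. The cDC1 marker sum of the members was 909 CPM in STOP, 452 CPM in D0 B and 0 to 305 CPM in the other 7 libraries, with 45.9 CPM in D3 A, where H2-Ab1 stood at 3641 CPM. Outside the restricted fit, restricted members, with no cDC1 UMI, held H2-Ab1 at 5065 CPM in D3 A, 7718 CPM in D3 B, 3223 CPM in STOP and 2769 CPM in D5 A. They held it at 605 to 845 CPM in D9 A, D19 A and D25 A, and at 0 CPM in D0 A. In D0 B they held 1442 CPM where all members held 6278 CPM, and in D5 B 92.3 CPM where all members held 7032 CPM. The part of cDC1 RNA in these values was not tested.

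**Figure D4:**
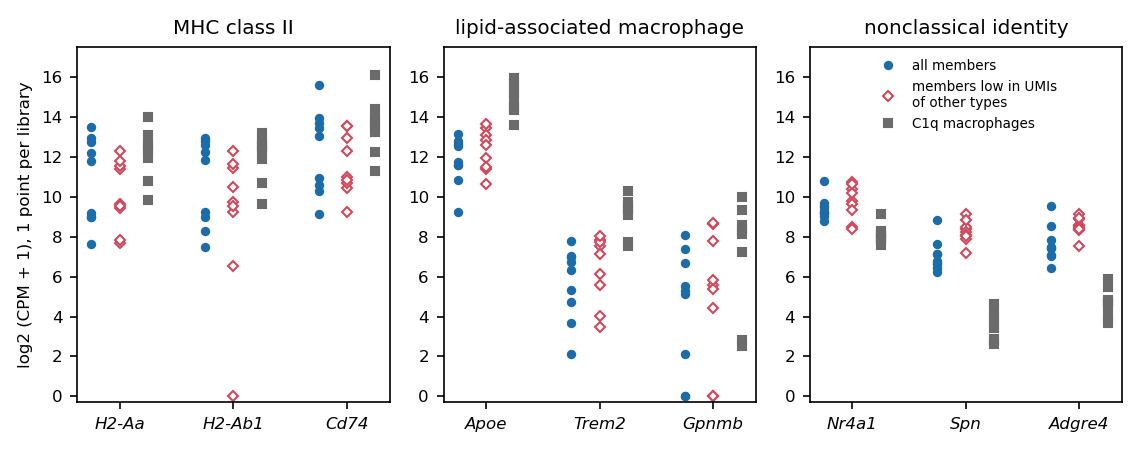
Log2 of CPM plus 1 (y axis) of 9 genes (x axis) of 3 programmes, with 1 point per library, in all members (blue circles), members low in UMIs of other types (red diamonds) and C1q-positive macrophages (grey squares). Apoe lay below the macrophages of the same library in every case, with 9184 CPM as the highest value of all members and 12453 CPM as the lowest macrophage value, while H2-Aa, H2-Ab1 and Cd74 overlapped.

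Other lists held calls in both directions. Of 24 type I interferon genes, 7 were lower, including Bst2 (tetherin, log2 -1.04) and Ifi27l2a (-0.68), and the exonuclease gene Isg20 was higher (0.98). Of 22 cytokine and chemokine genes, 7 were lower, including Ccl12, Il10 (log2 -1.93) and Cxcl16 (-1.90), and the death ligand Tnfsf10 was higher. Of 17 survival and growth factor receptor genes 5 were higher, with Bcl2 (log2 0.92) and the TNF receptor Tnfrsf1b (0.83), and 5 lower, with Csf1r and Tgfbr1 (-1.27). Of 11 cell cycle genes 4 were lower, including Top2a (log2 -2.35 ± 0.48). Of 14 NRF2 targets, Gsr, the glutathione reductase, was higher (log2 1.98 ± 0.23) with Slc7a11, and 3 were lower. Interferon gamma genes gave 1 lower of 14, glycolysis and hypoxia 1 higher and 2 lower of 13, and immediate early genes 1 higher and 2 lower of 18. Restricted cells gave 3 lower of 10 type I interferon genes, 5 lower and 1 higher of 12 cytokine genes, 4 higher and 3 lower of 16 survival genes, and 2 higher and 2 lower of 10 NRF2 targets. Isg20, Ccl12, Il10 and Tnfsf10 were not among those called there. The cell cycle list could be tested there for 1 gene, which was not called.

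By the naming rule, the largest rises against macrophages were Ifitm6, an interferon-induced membrane protein of monocytes (log2 4.63 ± 0.45, adjusted p = 8.95e-05), Pglyrp1, Spn, Plac8, Eno3, Slc12a2, a cation and chloride cotransporter (3.01), Acod1, which makes itaconate (3.31), Mgp, S100a8 and S100a9. Acod1 stood at 0 CPM in 7 of 10 restricted libraries and at 29.1 CPM or less in the other 3, and Mgp at 0 CPM in 8 and 23.9 CPM or less in the other 2. S100a8 and S100a9 stood at 40 CPM or less in every restricted library and at 4174 CPM or less in all members. Both belong to the neutrophil list that restricted members were filtered on, so the filter itself set their restricted values low. The largest falls were Chil4, Fcrls, Mmp13, Ms4a7, Pf4, Tmem119, Mmp12, Olfml3, C3ar1 and Cxcl14. Chil4 is a near-identical copy of Chil3 with which it may share reads, and DESeq2 gave it the opposite sign (log2 0.76, adjusted p = 0.906). Fcrls, an Fc receptor-like gene of tissue macrophages, was listed at 0 in 8 of 9 member libraries and stood between 19.1 and 147 CPM in the macrophages. Ms4a7, a membrane gene of resident macrophages, stood at 15.5 CPM ± 15.6 (SD, n = 9) in the members and 591 ± 258 in the macrophages (log2 -5.02 ± 0.47, adjusted p = 8.43e-05).

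The effect of the diet on nonclassical monocytes was tested over 8 libraries with protocol as a term, D0 A and D0 B against 3 libraries of onset (D3 A, D5 A, D5 B) and 3 of progression (D9 A, D19 A, D25 A). Few genes passed. Of 6703 genes tested, 5 were called (0.0746%), 3 higher (0.0448%) and 2 lower (0.0298%) on the diet, against 48 by DESeq2, and edgeR's unadjusted p was under 0.05 for 733. The count was 0 without D0 A, D0 B or D5 B, 2 without D5 A, 3 without D3 A or D9 A, 9 without D19 A and 78 without D25 A. It was also 0 with cDC1-positive members left out, with 757 genes at an unadjusted p under 0.05. That setting also dropped D5 B, where 9 of 20 members held a cDC1 UMI, so the change of cells and of libraries cannot be told apart.

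Cd93, a lectin-like receptor of myeloid cells and endothelium, stood at 25.1 CPM in D0 A and 1.67 CPM in D0 B. On the diet it stood at 313 (D3 A), 362 (D5 A), 117 (D5 B), 279 (D9 A), 379 (D19 A) and 270 CPM (D25 A). All 6 diet libraries lay above both steady-state libraries, which held 3 Cd93 UMIs together, and the fitted log2 fold change was 4.58 ± 0.60 (adjusted p = 0.00863). In the restricted members Cd93 stood at 0 and 10.2 CPM at steady state and at 46.2 to 254 CPM in 7 diet libraries, again with no overlap, and the fit on these few cells gave log2 4.93 (adjusted p = 0.127). The 46.2 CPM of D5 A were 3 UMIs, while 3 UMIs make 104 CPM in the 7 restricted cells of D0 A. STOP stood at 109 CPM. The adhesion molecule gene Jam2 (81.3 to 329 CPM on the diet, 12.5 and 0 CPM at steady state) and Ptgs1, the cyclooxygenase 1 gene (37.7 to 141 CPM, 0 and 3.34 CPM), were also higher. Of their UMIs, 2.69% and 4.92% came from restricted members, who held 26.8% of all UMIs. Restricted members were filtered on endothelial UMIs, so these shares are no test of origin. The endothelial marker sum was 902 and 95.1 CPM at steady state and 875 to 3420 CPM on the diet.

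Ighm, the IgM heavy chain of B cells, was lower on the diet, at 188 and 379 CPM at steady state and 7.44 to 82.2 CPM on the diet (log2 -3.08 ± 0.45, adjusted p = 0.0116). In restricted members it stood at 416 and 184 CPM and at 0 to 63.5 CPM, so the groups did not overlap there either. The 5 B cell markers summed to 25.1 CPM in D0 A and 549 CPM in D0 B, with Cd79b and Ms4a1 at 0 in D0 A, and to 1.22 to 12.4 CPM on the diet. Serpina1e, a hepatocyte antitrypsin gene, was the other gene called lower (125 and 31.7 CPM against 0 to 17.9 CPM).

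The 15 gene lists held 0 calls for the diet by edgeR among 216 genes tested, 44 of them below 0.05 before adjustment. By DESeq2 9 of them were called, among them Pglyrp1 (adjusted p = 0.0186), Hmox1 (0.0341) and Chil3 (0.00892). Nr4a1 stood at 1779 and 621 CPM at steady state and 448 to 823 CPM on the diet, with overlap (log2 -0.93 ± 0.34, adjusted p = 0.298). Its difference was 0.08 among members with at least 3000 UMIs, a setting that also dropped D0 A, and -0.07 without D0 A alone. Pglyrp1 stood at 514 CPM in both steady-state libraries and 74.3 to 222 CPM on the diet (log2 -1.72 ± 0.38, adjusted p = 0.0932). Apoe stood at 3032 and 597 CPM against 1831 to 9184 CPM (log2 1.33 ± 0.43, adjusted p = 0.235), and Trem2 at 25.1 and 3.34 CPM against 11.7 to 223 CPM (2.19 ± 0.85, adjusted p = 0.34). Hmox1 stood at 175 and 30 CPM against 223 to 702 CPM, with no overlap in all members (2.06 ± 0.52, adjusted p = 0.115). The medians of the lists ran from -0.64 for nonclassical identity to 1.27 for lipid-associated macrophage genes, beside 0.03 for all genes.

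Among restricted members the lists again held 0 calls for the diet by edgeR. Nr4a1, Pglyrp1, Hmox1 and Trem2 overlapped between steady state and diet there. Nr4a1 stood at 1733 and 1330 CPM at steady state and at 359 to 1594 CPM in 7 diet libraries (log2 -0.50, adjusted p = 0.825). Pglyrp1 stood at 485 and 1575 CPM against 9.7 to 600 CPM (-1.34, adjusted p = 0.814), and Hmox1 at 208 and 102 CPM against 191 to 1242 CPM (1.86, adjusted p = 0.598). Trem2 stood at 69.3 and 10.2 CPM against 15.4 to 225 CPM (2.25, adjusted p = 0.669), and Apoe at 2703 and 1575 CPM against 2861 to 12931 CPM (1.90, adjusted p = 0.598). The restricted list medians ran from -1.04 for type I interferon (4 genes) to 1.18 for Fc and scavenger receptors (11 genes). They were 1.16 for MHC class II, against 0.05 in all members, -0.44 for nonclassical identity and 1.07 for lipid-associated macrophage genes.

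Within the diet, progression was set against onset in the same fit, and 13 genes were called (0.194%), 11 higher (0.164%) and 2 lower (0.0298%), with 378 at an unadjusted p under 0.05 and 23 by DESeq2. The count was 4 without D5 A, 50 without D19 A and 0 with cDC1-positive members left out, with 271 genes at an unadjusted p under 0.05. That last setting also dropped D5 B, and the count was 16 without D5 B alone. Of the 11, the keratins Krt18 and Krt8, Cldn3, Wfdc2, Tspan8, Fxyd3 and Tstd1 are epithelial genes, Cd24a is shared by epithelium, dendritic cells, B cells and neutrophils, Lcn2 and Cp are secreted by injured epithelium and hepatocytes, and Thbs1, thrombospondin 1, is also made by monocytes. Krt18 stood at 2.19, 0 and 11.7 CPM at onset and at 491, 208 and 341 CPM in progression (adjusted p = 2.02e-04), yet at 0 to 28.3 CPM in restricted members. Restricted members held 0.562% (Fxyd3) to 5.14% (Cd24a) of the UMIs of these 10 genes. Their filter on cholangiocyte and hepatocyte UMIs sets such shares low in part, so the shares are no test of origin. The cholangiocyte marker sum was 35 to 114 CPM at onset and 315 to 689 CPM in progression. Cd24a stood at 19.7, 20.9 and 147 CPM at onset and 290, 315 and 161 CPM in progression, but also at 277 CPM in D0 B and 388 CPM in STOP, where the cholangiocyte sums were 80.1 and 96.9 CPM.

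Thbs1 differed from the other 10 in this respect, with 49.6% of its UMIs in restricted members. It stood at 153 (D3 A), 132 (D5 A) and 0 CPM (D5 B) at onset and at 811 (D9 A), 875 (D19 A) and 1137 CPM (D25 A) in progression (log2 2.79 ± 0.46, adjusted p = 0.0133). In restricted members the values were 378, 0, 169 and 0 CPM in 4 onset libraries and 1115, 1638 and 1576 CPM in progression, without overlap (log2 2.28, adjusted p = 0.517). D0 A stood at 614 CPM, below all 3 progression libraries, and at 1594 CPM in restricted members, and D0 B stood at 56.7 CPM.

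Itgax, the CD11c integrin chain, was lower in progression, at 40.4, 39.7 and 51.6 CPM against 157, 149 and 282 CPM at onset (log2 -1.98 ± 0.38, adjusted p = 0.0443). All 3 progression libraries lay below all 3 of onset and below both of steady state (150 and 88.4 CPM). Restricted members showed 50, 33 and 63.6 CPM against 252, 270, 108 and 369 CPM, with no overlap (log2 -2.07, adjusted p = 0.574). Protocol B sorts Itgax+ cells, and D5 B was the highest of the 3 onset libraries. Itgax is also a dendritic cell gene, and the cDC2 markers of the members summed to 59, 365 and 382 CPM at onset and to 34.3, 9.92 and 25.8 CPM in progression. Their part in the Itgax values was not tested, and no gene was called with cDC1-positive members left out, a setting that also dropped D5 B. Ifit1, an interferon-induced antiviral gene, was lower as well (78.7, 77.7 and 0 CPM against 17.1, 7.44 and 3.97 CPM, log2 -2.93 ± 0.53, adjusted p = 0.0373), although D5 B listed it at 0. In restricted members Ifit1 overlapped, at 9.7, 0, 15.4 and 0 CPM in 4 onset libraries and 20, 11 and 3.53 CPM in progression.

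Cp, Itgax and Ifit1 were the only called genes of the 15 lists. H2-Ab1 stood at 3641, 4823 and 7032 CPM at onset and 511, 181 and 603 CPM in progression without overlap, and did not pass (log2 -2.89 ± 0.83, adjusted p = 0.505; DESeq2 adjusted p = 0.0037). The list medians were -2.07 for MHC class II, -1.01 for type I interferon and 1.25 for classical identity genes, beside 0.03 for all genes. Restricted members gave medians of -1.29 over 8 MHC class II genes, 0.05 over 4 type I interferon genes and 0.58 over 9 classical identity genes, with 0 called by edgeR. Their H2-Ab1 values overlapped, at 5065 (D3 A), 7718 (D3 B), 2769 (D5 A) and 92.3 CPM (D5 B, from 5 cells) at onset and 845, 605 and 753 CPM in progression. Chil3 stood at 96.2, 529 and 135 CPM at onset and 860, 1388 and 938 CPM in progression (log2 1.83 ± 0.47, adjusted p = 0.231). The macrophages of the same libraries held H2-Ab1 at 4884, 5937 and 6445 CPM and at 3748, 806 and 1664 CPM. The part of the cDC2 marker sums given for Itgax in the MHC class II values was not tested either.

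**Figure D5:**
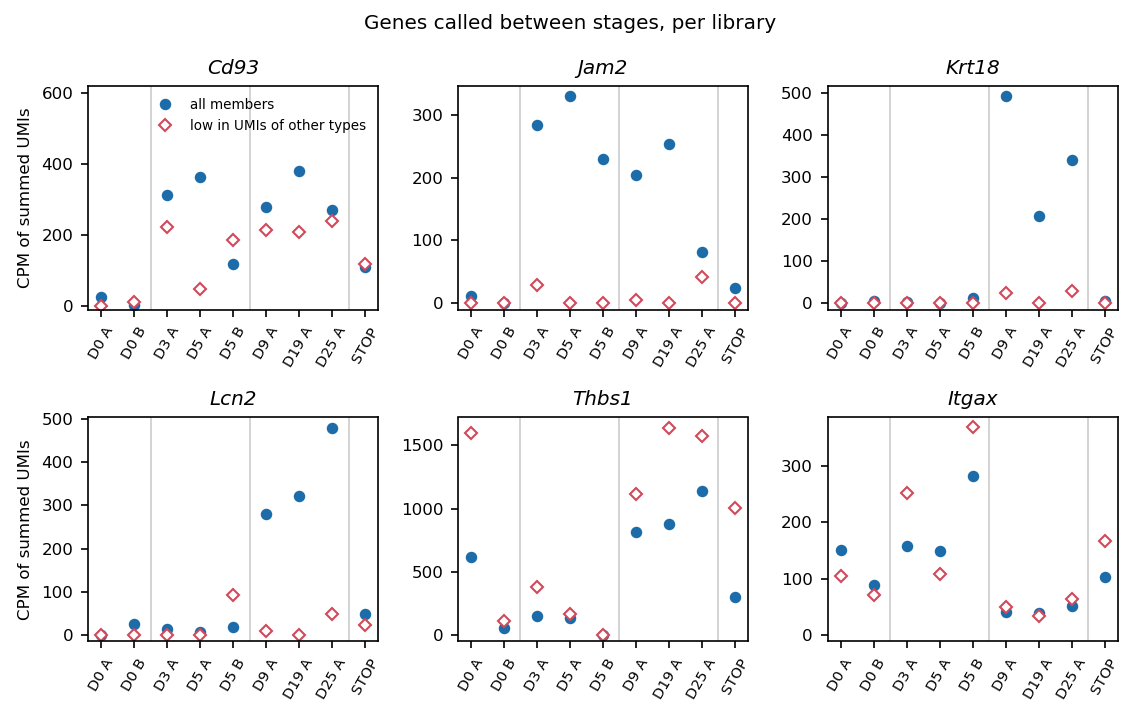
CPM (y axis) of 6 genes called between stages in each library (x axis), in all members (blue) and members low in UMIs of other types (red). Grey lines separate steady state, onset, progression and recovery. In both sets of members the diet libraries lie above steady state for Cd93 and the progression libraries above onset for Thbs1, while Jam2 stays at 42.4 CPM or less and Krt18 at 28.3 CPM or less in the restricted set.

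Recovery could not be set against the diet gene by gene, since D19 B, the library of the same protocol closest in time, held 3 members with 24749 UMIs. The share of cells was 0.283% in STOP (95% exact binomial interval 0.181 to 0.421) and 0.0426% in D19 B (0.00879 to 0.125), and for restricted members 0.0825% (0.0332 to 0.17) and 0.0142% (0.00036 to 0.0792). The first pair of intervals did not overlap and the second did. The intervals of D9 B (0.0793 to 0.362) and D25 B (0.0578 to 0.264) also overlapped that of STOP. These intervals cover counting error only, and 1 library on each side gives no test. In the members of STOP, Nr4a1 stood at 733 CPM, Csf1r at 267 CPM and Adgre4 at 170 CPM, beside 728, 288 and 176 CPM in D5 B. Spp1 stood at 3519 CPM in STOP, 52.8 CPM in D5 B and 1996, 1810 and 1983 CPM in D9 A, D19 A and D25 A, and in restricted members at 10457 CPM in the 7 cells of STOP against 0 to 205 CPM in the other 9 libraries. The 6 stellate and fibroblast genes summed to 1956 CPM in STOP and 5.87 CPM in D5 B, and 1 of the 24 STOP members held at least 3 of their UMIs.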

How the data were processed

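Per the labels, 13 single-cell 3' libraries were deposited as UMI counts per gene and cell barcode, which the authors made with kallisto. Its version was not given in the sources used here, and the submitters' processing notes name GRCm38. The deposited counts were unfiltered barcodes and were used as raw counts. Cells were barcodes with at least 1500 UMIs, no doublet caller was run, and cells with UMIs of other cell types were counted instead. The gate, the gene lists and the named genes were chosen with earlier results of these data known, and the restricted members and the other settings described as added were chosen after seeing the data. UMIs were summed per library and cell type where at least 20 cells were present. For restricted members the floor was 5 between stages, 10 against classical monocytes and 20 against macrophages. Sums were tested with edgeR 4.0.16 in R 4.3.3 (TMM scaling, filterByExpr, quasi-likelihood F test, Benjamini-Hochberg adjustment over all genes tested, threshold 0.05), with protocol or library as a term, and with DESeq2 1.42.0 as an alternative. In the fits, ± is the standard error. Shares were tested with exact permutation tests within protocol in scipy 1.17.1, and intervals are exact Clopper-Pearson. The rule for named genes took the 10 largest changes per direction among called genes whose mean log2 CPM reached 5, without predicted genes, plus the called members of 15 fixed lists. Serpina1e and, for the stages, Tspan8 lay outside this rule and were named after their values were seen. Genes were listed by symbol alone, so no positions are given. Scripts were tested on simulated data. Some genes covered by this rule and these lists are not reported here.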

Additional observations from a re-analysis of the deposited data

Results flagged for a closer look

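Within the 6 diet libraries, 1 library stood apart from the other 5 for 13 of 127 groups of values examined, and chance alone flags about 1 in 20. D19 A was the highest library for S100a8 (3780 CPM) and S100a9 (4174 CPM), for Wfdc21 (79.3 CPM), Pf4 (164 CPM) and Klf2 (1572 CPM). D9 A was the highest for the epithelial and hepatocyte genes Sprr1a (70.9 CPM) and Ttr (346 CPM), for Olfml3 (14.7 CPM), Ccl12 (4.89 CPM) and Fcrls (1.22 CPM), where the last value is a single UMI. D25 A was the highest for Ly6a2 (33.7 CPM), D3 A for Axl (192 CPM) and D5 A for Mmp12 (209 CPM). The members of D19 A had the highest sum of neutrophil markers of the 9 libraries (8513 CPM).

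The share of nonclassical monocytes among cells lay on opposite sides of steady state in the 2 protocols. It started at 0.307% in D0 A, with all 5 later libraries of protocol A above it, and at 1.36% in D0 B, with all 5 of protocol B below it. Thinned to 1500 UMIs per cell, 2 libraries of protocol A lay above D0 A (0.153%) and 3 below, and with cDC1-positive cells left out 4 lay above and 1 below, while all 5 of protocol B stayed below D0 B under both settings. The difference in direction was not tested.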

How the results depend on the processing

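The number of genes called for the diet (5) was 48 by DESeq2, 163 with no filter on low counts, 146 without the protocol term, and 0 at 3000 UMIs per cell, in protocol A alone, with cDC1-positive cells left out or in restricted members (1050, 1075, 757 and 147 genes at an unadjusted p under 0.05, by edgeR), and leaving out 1 library gave 0 to 78. For progression against onset (13) it was 23 by DESeq2, 144 with no filter and 0 without cDC1-positive cells or in restricted members (271 and 70 unadjusted), with 4 to 50 on leaving out 1 library. In these stage fits, leaving out cDC1-positive cells also dropped D5 B, and the setting of 3000 UMIs also dropped D0 A. Against classical monocytes (357) the number of genes called was 47 by DESeq2, 222 at 3 or more marker UMIs, 176 without cDC1-positive cells and 132 among restricted cells. Against macrophages (1501) it was 966 at 3 or more marker UMIs, 638 at 50 cells per library and 611 among restricted cells. The restricted cells could come only from D0 B, D9 A and D25 A, and leaving out 1 library from the main fit gave 1008 to 1541. The differences in share kept their direction under the other gates and depths, but leaving out 1 library moved them from -0.909 to 0.142 points of cells, from -9.51 to 21.3 points of monocytes for the diet and from -2.24 to 8.07 points for progression. Nr4a1 under the diet turned to 0.08 at 3000 UMIs, where D0 A was dropped. Itgb7 against classical monocytes turned to 0.16 and Hmox1 against macrophages to 0.13 among restricted cells, and Chil4 against macrophages to 0.76 by DESeq2. Their causes were not tested. For stages and shares, no paired analysis was possible because the replicate numbers name the protocols, a term of the fits, while the comparisons between cell types held the library as a block. With 3 marker UMIs, cells of other lineages left out, 50 cells or protocol B alone the stages could not be fitted, nor classical monocytes with other lineages left out, at 50 cells or in 1 library, and monocyte shares were not recomputed in thinned or restricted cells. The 20 to 120 members per library (5 or more restricted) limit all gene comparisons.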
